A study of Nothobranchius furzeri with 42 samples.

Results

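Heart and spleen were compared within the same animal in the African turquoise killifish Nothobranchius furzeri, a fish kept as a model of fast ageing. The comparison took every fish that had a library of both organs, which gave 16 of the 42 libraries of the series, 8 from heart and 8 from spleen. Of the 8 fish, 5 had been kept with 10 µM alendronate in the system water and 3 with distilled water as placebo, and alendronate is a bisphosphonate that acts on bone-resorbing cells. All were females of the GRZ strain kept at 28 °C, treated from 16 weeks of age for 3 weeks and sampled at 19 weeks. The ninth fish, on placebo, had a heart library and no spleen library used here. Total counts ran from 22497686 to 27422766 in the hearts and from 20898321 to 27004620 in the spleens.

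The heart is mostly striated muscle that contracts without pause, with endocardium, vessels and connective tissue around it. The fish spleen filters blood, stores red cells and thrombocytes and houses lymphocytes and macrophages, while blood formation in adult teleosts takes place largely in the kidney marrow. Muscle and kidney are thus the organs of this series likely to share most with heart and spleen. The deposited table names genes by Ensembl ID and does not pair the IDs with symbols, and 0 of its 25475 IDs matched the gene table at hand. No function is therefore attached to any gene below, and the tissue labels could not be checked against marker genes. Genes are described instead by where else in the fish they were found, in groups set from the 25 liver, muscle and kidney libraries without use of any heart or spleen library.

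The profiles were ordered by tissue. Across 16615 genes, the 8 hearts correlated with the mean muscle profile at a Pearson r from 0.727 to 0.764, with the mean kidney profile from 0.650 to 0.688 and with the mean liver profile from 0.550 to 0.626. The 8 spleens did so from 0.526 to 0.610 with muscle, from 0.734 to 0.766 with kidney and from 0.5995 to 0.771 with liver. Each heart was thus nearest to muscle of the 3. The spleens were nearest to kidney in all fish but alendronate fish 1, whose spleen had an r of 0.771 with liver and 0.734 with kidney. These values describe likeness across genes, which are not independent replicates.

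A heart and a spleen stood apart before any test. Each library was given the median distance of its genes from the median of its tissue, over 10770 genes with a mean of at least 5 CPM (counts relative to the library total, adjusted by TMM factors) in both tissues. It was 0.363 on the log2 scale in the heart of alendronate fish 3, against 0.114 to 0.165 in the other 7 hearts. It was 0.372 in the spleen of alendronate fish 1, against 0.146 to 0.236 in the other 7 spleens. The counts of calls below are also given without both organs of these 2 fish. That setting was planned because earlier results of these data showed uneven counts of liver genes in spleen.

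Heart and spleen differed in most genes. With fish as a block, 5040 of 16668 genes tested were higher in heart (30.2%) and 5311 were higher in spleen (31.9%), so that 62.1% passed an adjusted p of 0.05 in edgeR's quasi-likelihood test. A change shown to exceed 2-fold, by edgeR's glmTreat, was found for 2092 genes higher in heart (12.6%) and 2717 higher in spleen (16.3%), or 28.9% in all. Without alendronate fish 1 and 3 the counts were 5355 and 4859 at any size, and 2224 and 2556 past 2-fold. Heart made up 48.7% of all calls, but 30.6% (3369 of them, against 7633 in spleen) when levels were scaled by library totals alone, which moved the median of all genes by -0.33 on the log2 scale. In bulk tissue, fewer cells of a type and less RNA per cell cannot be told apart.

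Differences of moderate size were more often on the spleen side and the largest on the heart side. At a fitted change of 4-fold or more, 1395 called genes were higher in heart and 2094 in spleen, and at 16-fold or more 597 and 534. At 64-fold or more the numbers were 328 in heart and 183 in spleen. With library totals as scaling they were 528 and 724 at 16-fold, which turned the direction there, and 295 and 213 at 64-fold, which kept it. The genes past 2-fold in heart supplied 42.8% ± 3.27 of heart counts and 8.19% ± 0.392 of spleen counts (SD, n = 8 each). Those past 2-fold in spleen supplied 4.08% ± 1.00 of heart counts and 29.7% ± 3.48 of spleen counts (SD, n = 8 each). These genes were chosen by the same difference, so the shares only describe how much of each library they made up.

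**Figure D1:**
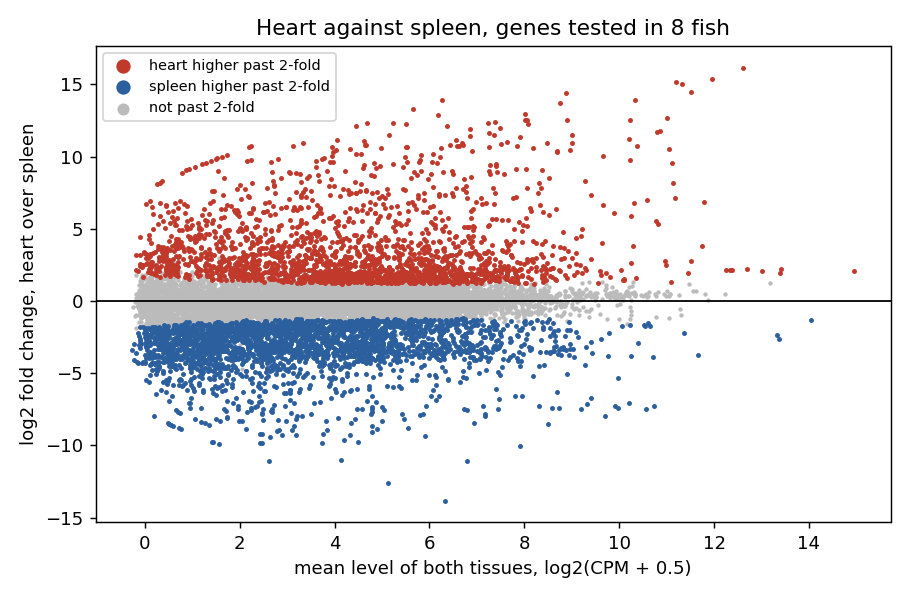
Each point is 1 of 16668 genes, with the mean level of both tissues in log2(CPM + 0.5) on the horizontal axis and the fitted log2 fold change of heart over spleen on the vertical axis. Red points are the 2092 genes higher in heart past 2-fold and blue points the 2717 higher in spleen, and the upper side reaches further from 0.

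The share of genes called changed with abundance. Of the 175 genes with a mean of 1000 CPM or more in either tissue, 60.6% were higher in heart and 24.6% in spleen. Of the 4792 genes between 1 and 10 CPM, 21.0% were higher in heart and 37.0% in spleen. Abundant genes thus tilted to heart and scarce ones to spleen. With library totals as scaling the shares were 44.4% and 30.9% of 162 abundant genes, and 15.6% and 46.6% of 4743 scarce ones. The share called in either direction was 30.2% below 1 CPM and 85.1% at 1000 CPM or more, and the median size of the log2 fold change was 0.64 and 1.58 in these steps. That size did not rise evenly between them. It was 0.83 from 1 to 10 CPM, 0.52 for the 9103 genes from 10 to 100 CPM and 1.03 from 100 to 1000 CPM.

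The direction was also counted fish by fish. Over all 16668 genes tested, 8050 (48.3%) had the same sign in all 8 fish. Of the genes called, 3881 of 5040 higher in heart had that sign in all 8 fish, and so did 4068 of 5311 higher in spleen. Among genes past 2-fold, the sign held in all 8 fish for 2044 of 2092 and for 2590 of 2717. The called genes were chosen by the same paired difference, so their shares only describe it. The 8 hearts lay above all 8 spleens for 2662 genes (16% of those tested), and the 8 spleens above all 8 hearts for 2272 (13.6%), which is 29.6% together. The fish that went against the call most often was alendronate fish 1, in 5.65% of called genes, and the one that did so least was placebo fish 2, in 1.23%. The heart-minus-spleen difference of each fish correlated with the mean of the other 7 at an r from 0.878 in alendronate fish 1 to 0.960 in placebo fish 2, across genes.

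The treatment arms gave like differences when fitted apart. They share no library, and 16540 genes were tested in both. In the 5 alendronate fish 7787 of these genes were called and in the 3 placebo fish 7767. Both fits called 6612 genes in the same direction, 3146 higher in heart and 3466 higher in spleen, and 0 in opposite directions. That is 84.9% of the calls from alendronate fish and 85.1% of those from placebo fish. Of the 7787 genes called in alendronate fish, 99.7% had the same sign in placebo fish, and of all 16540 genes 88.8% had. The fitted changes correlated at r = 0.969 across genes.

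Whether the heart-spleen difference depended on alendronate was tested with the tissue-by-treatment term. No gene of the 16668 passed (0 calls, 0%), and the lowest adjusted p in edgeR's quasi-likelihood test was 1. An unadjusted p under 0.05 was reached by 264 genes (1.58%), while chance alone would give 833.4. With fewer small p values than chance gives, the test was conservative here. The 0 calls therefore do not show that no gene depended on alendronate. DESeq2 also called 0, with 328 genes at an unadjusted p under 0.05 and a lowest adjusted p of 0.263. Leaving out alendronate fish 1 turned the 264 into 787, and leaving out placebo fish 3 turned it into 160. Dropping both alendronate fish 1 and 3, which was not planned for this term, gave 996 of 16842 genes. Each of these fits made 0 calls. For 45.3% of genes at 1 CPM or more in either tissue, the 95% interval of this term lay within 2-fold in both directions. For the rest the interval reached 2-fold or beyond in at least 1 direction. How the fish were divided over tanks is not stated in the labels, so tank and arm cannot be told apart.

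Genes found mainly in muscle were mostly higher in heart, also when no filter on low counts was applied. A gene was called enriched in 1 of liver, muscle and kidney when it averaged 5 CPM or more there and 10 times its mean in each of the other 2. Of the 647 muscle-enriched genes, 484 passed the filter on low counts, and 379 of these (78.3%) were higher in heart, 56 (11.6%) higher in spleen and 49 not called. Their median log2 fold change was 3.33, with quartiles of 0.89 and 6.58, while the median over all genes tested was -0.02. A gene passes the filter through the tissue where it is high, so the group was also fitted without it. In that fit 21.82% of all 24427 genes were higher in heart and 25.02% higher in spleen. Of the muscle-enriched genes 407 of 641 (63.5%) were higher in heart and 69 (10.8%) higher in spleen, with a median of 2.39. A limit of 5-fold for enrichment gave a median of 2.08. The median difference of heart minus spleen within a fish, on log2(CPM + 0.5), ran from 2.58 in alendronate fish 5 to 3.13 in alendronate fish 2. No fish stood apart from the rest in this measure. Muscle-enriched genes supplied 5.67% to 6.69% of the counts in hearts and 0.456% to 0.798% in spleens, so the shares did not overlap.

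Genes found mainly in kidney were more often higher in spleen than in heart. Of 484 kidney-enriched genes 244 were tested, and 35 (14.3%) were higher in heart, 158 (64.8%) higher in spleen and 51 not called. The median log2 fold change was -2.18, with quartiles of -3.51 and -0.15. Without the filter 21.82% of all genes were higher in heart and 25.02% higher in spleen. In that fit 47 of 479 kidney-enriched genes (9.81%) were higher in heart, 210 (43.8%) higher in spleen and 222 not called. Their median was -1.47. Within a fish the median difference ran from -1.62 in alendronate fish 5 to -1.19 in alendronate fish 2. Their share of counts did not follow the median gene, at 0.646% to 0.968% in hearts and 0.487% to 1.34% in spleens. In heart 1 gene held 48.3% of the group's CPM and 5 genes held 84.6%, and in spleen the leading 5 held 30.4%.

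Genes found mainly in liver were also mostly higher in spleen, and unevenly so. Of 572 liver-enriched genes 447 were tested, with 56 (12.5%) higher in heart, 278 (62.2%) higher in spleen and 113 not called, at a median log2 fold change of -1.90. Without the filter 353 of 572 (61.7%) were higher in spleen, against 25.02% of all genes in that fit. The median of the liver-enriched genes was -2.45 without the filter and -0.91 with the 5-fold limit. The median difference within a fish was -3.15 in alendronate fish 1, -2.07 in alendronate fish 3 and between -1.52 and -0.22 in the other 6. The median level of these genes was 1.20 to 4.20 CPM in the 8 hearts. In spleen it was 32.4 CPM in alendronate fish 1 and 15.3 CPM in alendronate fish 3, and 2.56 to 7.91 CPM in the other 6. Without these 2 fish 5355 of all 16842 genes tested were higher in heart and 4859 in spleen. Of the liver-enriched genes in that fit 79 of 438 were higher in heart and 237 in spleen, and their median was -1.31. Their summed share of spleen counts was 18.5% for alendronate fish 1 (95% Wilson interval 18.46% to 18.49%), 9.31% for placebo fish 2 (interval 9.30% to 9.32%), 7.75% for alendronate fish 3 (interval 7.74% to 7.76%) and 0.919% to 4.76% in the other 5 spleens, against 0.782% to 1.16% in hearts. The part of liver tissue in these values was not tested.

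Groups shared by 2 of the 3 organs were tilted as well. Over all genes tested 30.2% were higher in heart and 31.9% higher in spleen. Of the 129 genes shared by muscle and kidney against liver, 109 were tested, with 68 (62.4%) higher in heart, 25 (22.9%) higher in spleen and a median of 2.61. With the 5-fold limit 105 of 206 (51.0%) were higher in heart, 63 (30.6%) higher in spleen and the median was 0.63. Of the 34 genes shared by liver and muscle, 33 were tested, with 21 (63.6%) higher in heart, 6 (18.2%) higher in spleen and a median of 2.37. Of the 227 genes shared by liver and kidney, 168 were tested, with 14 (8.33%) higher in heart, 113 (67.3%) higher in spleen and a median of -1.80, or -2.44 over all 227 without the filter. Without the filter 54.3% of muscle and kidney genes were higher in heart and 21.7% in spleen. For liver and muscle genes the shares were 61.8% and 17.6%, and for liver and kidney genes 6.17% and 68.3%. Over all genes in that fit they were 21.82% and 25.02%. Within fish, the liver and kidney group ran from -2.60 in alendronate fish 1 to -0.56 in alendronate fish 2, the same order of extremes as the liver-enriched genes.

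Genes evenly expressed in liver, muscle and kidney differed little in size. These had at least 5 CPM in all 3 and under a 2-fold range, and 3259 of 3260 were tested. Of these 863 (26.5%) were higher in heart and 628 (19.3%) higher in spleen, but only 86 and 70 past 2-fold. Over all 16668 genes tested the shares were 30.2% and 31.9%, and 12.6% and 16.3% past 2-fold. The median of the even genes was 0.05, or -0.28 when scaled by library totals. That scaling turned their calls to 11.0% higher in heart and 45.2% in spleen, against 20.2% and 45.8% of all genes tested. Within fish the median of the even genes ran from -0.11 in alendronate fish 2 to 0.18 in alendronate fish 3. The standard deviation of the difference over the 8 fish had a median of 0.318 for these genes, 0.427 for all 13294 genes at 5 CPM or more in either tissue, 0.588 for muscle-enriched, 0.674 for kidney-enriched and 1.47 for liver-enriched genes.

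**Figure D2:**
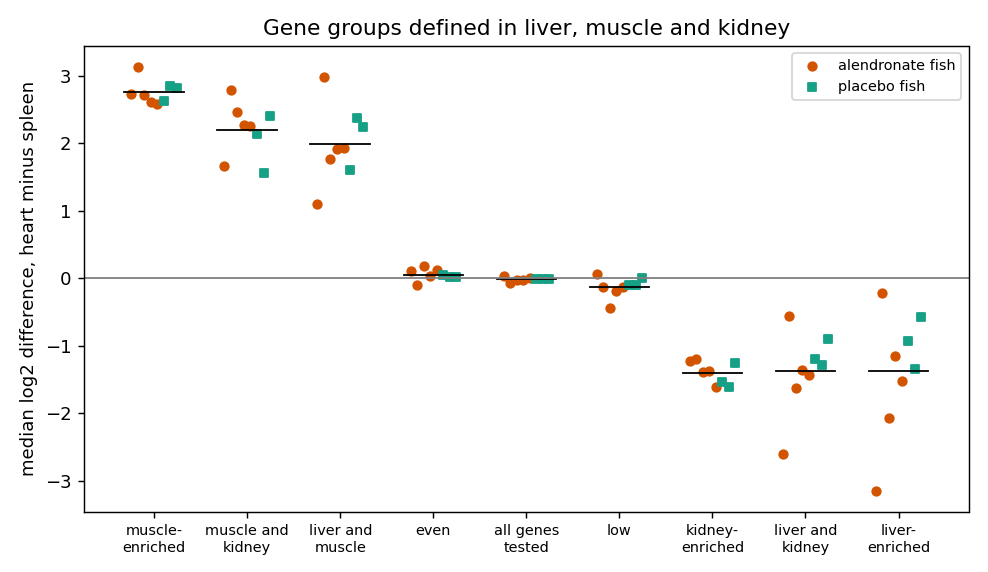
The vertical axis is the median over a group's tested genes of the log2 difference, heart minus spleen, on log2(CPM + 0.5). Each point is 1 fish (circles for the 5 alendronate fish, squares for the 3 placebo fish) and the bar is the mean of 8 fish. All 8 fish lie above 0 in the muscle-enriched group and below 0 in the kidney-enriched and liver-enriched groups, and the liver-enriched points spread from -3.15 to -0.22.

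The heart-spleen difference followed the muscle-kidney ratio in steps. Of the genes tested, the 11528 at 5 CPM or more in muscle or kidney were ordered by the log2 ratio of muscle to kidney. All of them had passed the filter on low counts through heart or spleen, and the steps were not refitted without it. For kidney-enriched genes the median was -2.18 with that filter and -1.47 without it, so the steps describe the genes kept. The median heart over spleen log2 fold change was -2.13 below a ratio of -4, -2.28 from -4 to -3, -1.37 from -3 to -2, -0.46 from -2 to -1 and -0.11 from -1 to 0. On the muscle side it was 0.18 from 0 to 1, 0.53 from 1 to 2, 1.96 from 3 to 4 and 4.21 above 4, and the step from 2 to 3 lay between its neighbours. The share of genes higher in heart went with it, at 13.4% of 217 genes in the lowest step and 81.1% of 435 in the highest. The order of the medians was broken in 1 place, where the lowest step lay above the next. Over these genes Pearson's r was 0.559 and Spearman's rho 0.521, from libraries of other organs of the same fish. The shift of -0.33 with library totals is larger than the medians of the 2 steps next to a ratio of 0.

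**Figure D3:**
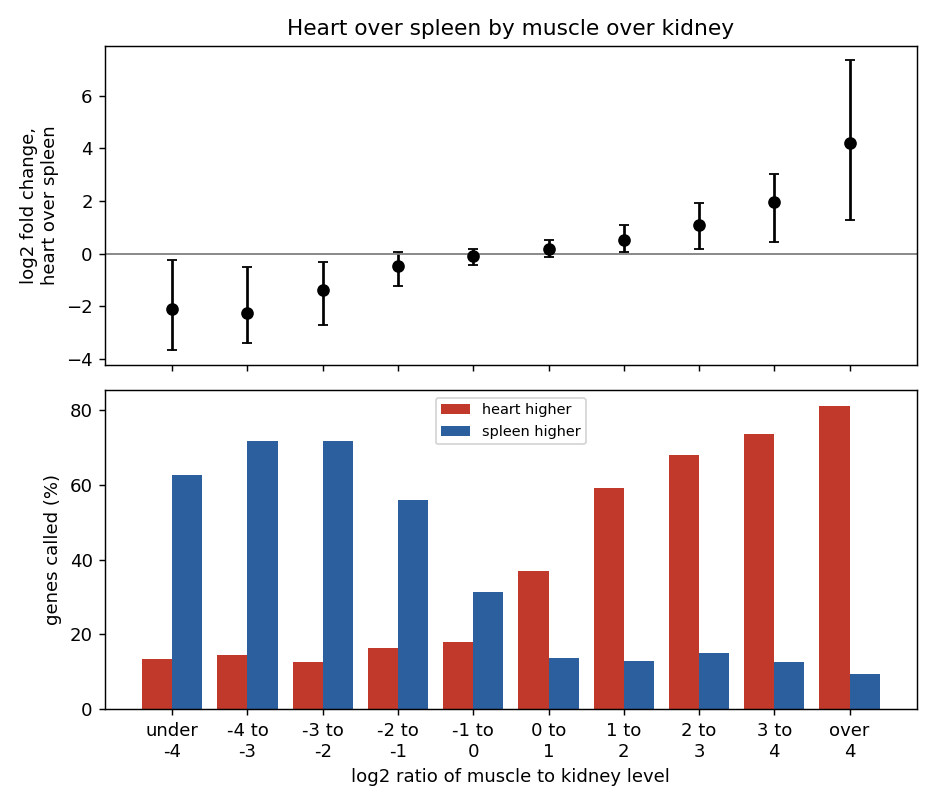
Genes that passed the filter on low counts in heart and spleen are ordered from left to right by the log2 ratio of muscle to kidney level. The upper panel shows the median heart over spleen log2 fold change with the quartiles as bars, from -2.13 in the first step to 4.21 in the last, and the lower panel the percent of genes called higher in heart (red) or in spleen (blue).

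Seen from the calls, the same tilt appeared. Of the 2092 genes past 2-fold in heart, 59.7% had their highest level of liver, muscle and kidney in muscle, 14.4% in kidney and 15.9% in liver, and 9.99% reached 1 CPM in none. Of the 2717 genes past 2-fold in spleen, 13.8% had it in muscle, 52.0% in kidney and 23.0% in liver, and 11.2% in none. Over all genes tested the values were 32.3% in muscle, 30.7% in kidney, 29.6% in liver and 7.28% in none.

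Genes present in 1 of the 2 organs and near absent from the other were more numerous in heart, also with library totals as scaling (143 and 61). At 10 CPM or more in every heart and a median under 0.5 CPM in spleen there were 158 genes. Of these 101 (63.9%) reached 5 CPM in muscle, 22 (13.9%) in kidney and 7 (4.43%) in liver. The reverse, 10 CPM or more in every spleen and a median under 0.5 CPM in heart, held for 54 genes, of which 11 (20.4%) reached 5 CPM in muscle, 15 (27.8%) in kidney and 15 (27.8%) in liver. Of all 16668 genes tested, 11528 reached 5 CPM in muscle or kidney. The share over all genes tested was not taken for muscle, kidney or liver alone. The shares of these 2 sets are therefore not read as a tilt to any organ. By a limit of 1 CPM in all 8 libraries of a tissue, 12456 genes were found in both organs, 317 in all hearts and no spleen, and 306 in all spleens and no heart.

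A further 7288 genes were under 0.5 CPM in liver, muscle and kidney alike. The filter on low counts kept 599 of them, which had to be present in heart or spleen to pass. Of the 599, 160 (26.7%) were higher in heart and 204 (34.1%) in spleen, and 122 and 156 past 2-fold. Over all genes tested the shares were 30.2% and 31.9%. Without the filter 380 of 6268 (6.06%) were higher in heart, 648 (10.3%) higher in spleen and 5240 not called. In that fit the shares over all 24427 genes were 21.82% and 25.02%. The counts the group supplied were mostly in heart, at 1.03% to 2.18% of heart counts and 0.153% to 0.287% of spleen counts. At a mean of 100 CPM or more there were 10 of these genes in heart and 1 in spleen. In heart 1 gene held 52.0% of the group's CPM.

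That gene, ENSNFUG00015017695, was one of 4 IDs picked as the pair with the largest fitted change in each direction, among genes past 2-fold with the same sign in all 8 fish and at least 100 CPM in the higher tissue (591 in heart and 391 in spleen). It had a lowest level of 5771, a median of 7281 and a highest of 13426 CPM in the 8 hearts, against 0.0399, 0.114 and 3.22 CPM in the 8 spleens. Every heart was far above every spleen. The log2 fold change was 15.36 with a standard error of 0.84 (adjusted p = 4.40e-08 by edgeR's quasi-likelihood test), 16.24 without placebo fish 3 and 13.92 without the block. The summed counts gave a heart over spleen ratio of 11111 per count of library total (exact 95% interval from 9299 to 13391, counting error only). Of the 121 spleen counts in this sum, 103 came from placebo fish 3, so the ratio and its interval rest mostly on that spleen. The mean of ENSNFUG00015017695 was 0.310 CPM in liver, 0.162 in muscle and 0.0732 in kidney, so heart was the one organ of the 5 with more than traces. All 4 IDs were chosen by the heart-spleen difference, so their adjusted p values and lack of overlap only describe it.

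ENSNFUG00015019632 had the largest change of the genes eligible by this rule in the fit with fish as block, while without the block ENSNFUG00015017695 lay slightly above it. It ran from 10238 to 21226 CPM in hearts with a median of 11304, and from 0 to 5.72 CPM in spleens with a median of 0.0688. The log2 fold change was 16.17 with a standard error of 1.05 (adjusted p = 1.55e-07, edgeR), 17.19 without placebo fish 3, 14.21 in placebo fish alone and 13.89 without the block. The size of the log2 fold change thus depended on the fit. The ratio of summed counts was 10684 (exact 95% interval from 9295 to 12344, counting error only). It also rests mostly on 1 spleen, since 183 of the 198 spleen counts came from placebo fish 3. In both of these genes the highest heart was alendronate fish 3 and the highest spleen placebo fish 3, which held 183 and 103 counts where the other 7 spleens held at most 6. Mean levels of ENSNFUG00015019632 were 0.570 CPM in muscle, 0.0876 in kidney and 0.0267 in liver.

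On the spleen side, ENSNFUG00015017592 was listed at 0 counts in 7 of 8 hearts and at 1 count in placebo fish 4. In spleens it ran from 50.3 to 253.6 CPM with a median of 184 CPM, and the lowest spleen had 988 counts. The counts of 35254 in 8 spleens and 1 in 8 hearts gave a spleen over heart ratio of 35855 per count of library total (exact 95% interval from 6435 to 1416230, counting error only). The adjusted p was 2.36e-10 by edgeR's quasi-likelihood test, at a fitted log2 fold change of -13.82, or -15.04 without placebo fish 4. That change depends on the prior count used for zeros. Its standard error of 0.33, derived from the test's F, does not cover this, and the exact interval of the count ratio is far wider. Its mean was 3.32 CPM in muscle and at most 0.217 CPM in kidney and liver.

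ENSNFUG00015003055 had 124 to 284 CPM in spleens, with a median of 243 CPM, and 0 to 0.666 CPM in hearts, with a median of 0.0244. The log2 fold change was -11.05 with a standard error of 0.52 (adjusted p = 1.45e-08, edgeR), and -12.29 without alendronate fish 2, whose heart was the highest. Unlike the other 3 it was present in liver, muscle and kidney alike, at 19.1, 27.0 and 12.1 CPM, and heart was the organ where it was near absent. No other ID is printed, because the files give no names for them.

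**Figure D4:**
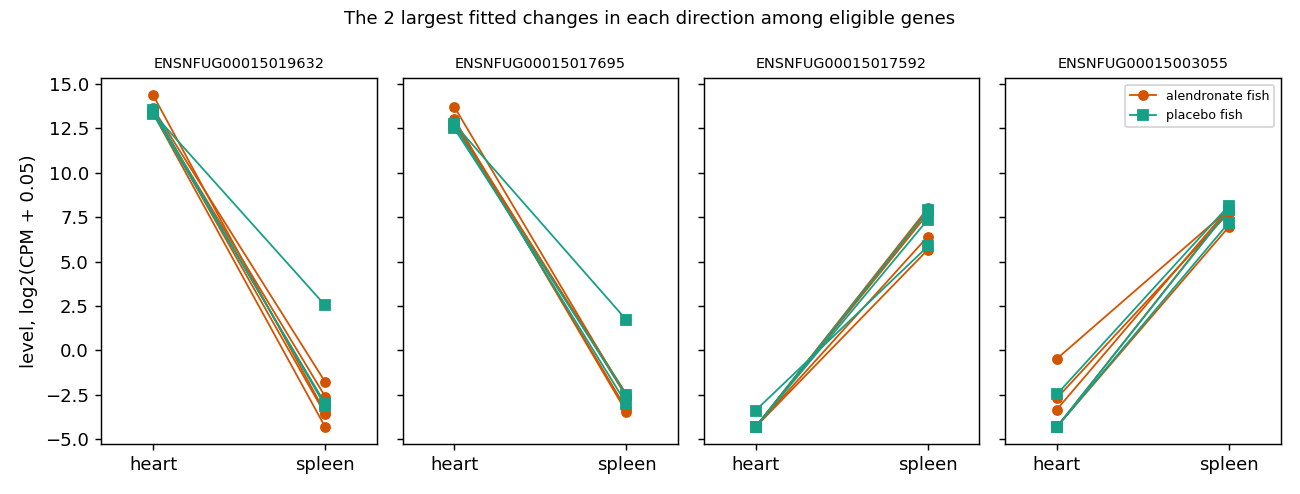
Levels in log2(CPM + 0.05) of the 2 genes with the largest fitted change in each direction among those eligible, with heart on the left and spleen on the right of each panel and a line for each fish (circles alendronate, squares placebo). Hearts and spleens do not overlap in any panel, which the choice of genes by this difference favours. The spleen of placebo fish 3 lies above the other 7 spleens in the 2 panels on the left.

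Spleen libraries spread their counts over more genes. The number of genes at 1 CPM or more was 14602 ± 159 in hearts and 15238 ± 203 in spleens (SD, n = 8 each), lower in the heart of all 8 fish (exact permutation p = 0.00781, the smallest that 8 pairs allow, adjusted p = 0.0313 over 4 measures). With library totals as scaling the means were 14421 in hearts and 15433 in spleens. The most abundant genes needed to reach 50% of counts numbered 332 ± 84.1 in hearts and 545 ± 117 in spleens (SD, n = 8 each), with fewer in heart in 7 of 8 fish (exact permutation p = 0.0156, adjusted p = 0.0313). Alendronate fish 1 was the exception, at 406 in heart and 363 in spleen. The share of counts in the 10 most abundant genes was 14.4% ± 2.49 in hearts and 12.1% ± 3.54 in spleens (SD, n = 8 each), higher in heart in 6 of 8 fish, which did not pass (exact permutation p = 0.0703, adjusted p = 0.0938). With the 50 most abundant genes the difference was 5.94 percentage points, with an adjusted p of 0.0208 in the exact permutation test. Of the 10 most abundant genes by mean share in each tissue 4 were common to both, and of the top 50 there were 22.

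The spleen lay further from its tissue median than the heart in 7 of 8 fish, but the difference did not pass the test. The median distance from the tissue median was 0.163 ± 0.0825 in hearts and 0.211 ± 0.0696 in spleens on the log2 scale (SD, n = 8 each; exact permutation p = 0.281, adjusted p = 0.281). Alendronate fish 3, whose heart stood apart, was the exception. The pairwise r across genes had a median of 0.939 (0.899 to 0.977) among hearts and 0.918 (0.801 to 0.966) among spleens. Over fish, the standard deviation was larger in heart for 33.8% of 10770 genes, and for 27.9% without alendronate fish 1 and 3.

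**Figure D5:**
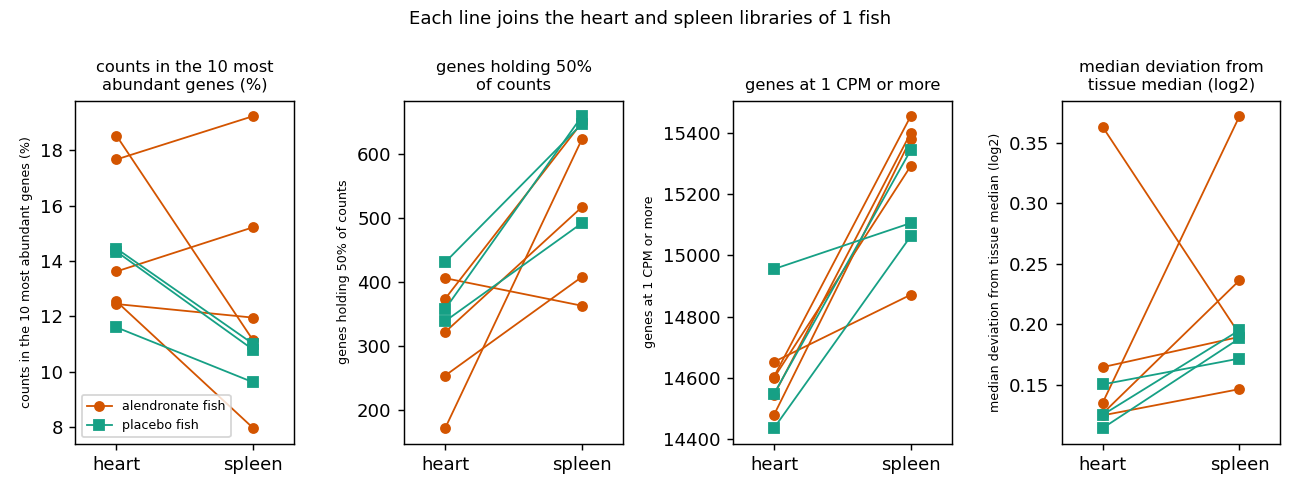
The 4 panels show, for each fish, its heart on the left joined to its spleen on the right (circles alendronate, squares placebo), for the percent of counts in the 10 most abundant genes, the number of genes holding 50% of counts, the number of genes at 1 CPM or more and the median log2 distance from the tissue median. The third panel has all 8 lines going up from heart to spleen, and axes do not start at 0.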

How the data were processed

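The authors deposited raw read counts, as whole numbers by Ensembl gene ID, in a single table with a column for each library. Among the tools in the submitters' processing notes are STAR 2.7.10b, Trim Galore 0.6.10 and SAMtools 1.13, listed without a role. For the counting step, its strand setting, the build and the annotation, the sources used here give nothing. Counts of overlapping genes and of near-identical copies are uncertain for that reason. The table has 0 rows that name no gene, and 0 columns belong to no sample.

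Fish were paired by the letter and number in the library titles, read as 1 animal. Deviations of the 2 organs of 1 fish from the arm means correlated from 0.05 to 0.56 over 10770 genes, with a mean of 0.38 against -0.05 between different fish, which centring on arm means itself lowers. The heart matched best with the spleen of its own fish in 4 of 8. The heart of alendronate fish 1 matched best with the spleen of alendronate fish 3, and the reverse held too. Their same-fish r, at 0.23 and 0.05, were the lowest of the 8. These are also the fish whose spleen (alendronate fish 1) or heart (alendronate fish 3) stood apart. Within-fish values of both rest on the titles, and whether their organs are rightly paired was not tested. The labels do not say how many tanks held the fish. edgeR 4.0.16 in R 4.3.3 was run on the 16 libraries with filterByExpr by tissue, TMM scaling and the robust quasi-likelihood F test, with fish as block, and Benjamini-Hochberg adjustment over all genes tested, at a threshold of 0.05. Fold changes are heart over spleen. Standard errors of the 4 named genes were derived as the size of the log2 fold change over the square root of F. They are approximate, since 1 of the 2 tissues is near 0 counts in each. DESeq2 1.42.0 and limma-voom (limma 3.58.1) were alternatives. The edgeR fit with fish as block and that of the tissue-by-treatment term were run on simulated counts. The 2-fold test and the alternative fits were not. Composition was compared by two-sided exact permutation of signs within fish (256 flips, scipy 1.17.1), adjusted over 4 measures. Shares of counts have 95% Wilson intervals of at most 0.0211 percentage points to either side over 160 shares, which cover counting error only, since reads carry no molecular identifiers.

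The comparison and its gene groups were chosen with earlier results of these data known. The 19 gene lists written by symbol could not be matched to any ID and were not tested, and IDs were named by the rule given with them. Levels in liver, muscle and kidney were scaled by TMM over those 25 libraries, apart from the heart and spleen levels.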

Additional observations from a re-analysis of the deposited data

Results flagged for a closer look

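Over 46 sets of 8 values (libraries of a tissue, or fish), 12 had an extreme value set off from the others under Dixon's 95% limit, where chance gives about 1 in 20, or 2.3. Values of 1 library depend on each other, so these are not separate events. The rate of 1 in 20 is for normally distributed values. It does not hold for the named genes in the organ where they are near 0 counts, and several of the 12 are such values. By how much 12 exceeds chance is therefore not known.

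Alendronate fish 3 had the highest heart in 3 of them. Its median distance from the tissue median was 0.363 (next 0.165), with ENSNFUG00015019632 at 21226 CPM (next 12563) and ENSNFUG00015017695 at 13426 CPM (next 8357). In the heart of placebo fish 4, 14955 genes reached 1 CPM (next 14652), genes shared by liver and kidney made up 0.131% of counts (next 0.112%), and ENSNFUG00015017592 was at 0.0454 CPM, which is 1 count, with 0 in the other 7 hearts. In the heart of alendronate fish 4, genes low in liver, muscle and kidney made up 2.18% of counts (next 1.53%). In the heart of alendronate fish 2, ENSNFUG00015003055 was at 0.666 CPM (next 0.128).

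In the spleen of alendronate fish 1 the median distance was 0.372 (next 0.236), and evenly expressed genes made up 20.1% of counts, the lowest (next 23.9%). In the spleen of placebo fish 3, ENSNFUG00015019632 was at 5.72 CPM (next 0.240) and ENSNFUG00015017695 at 3.22 CPM (next 0.130).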

How the results depend on the processing

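The numbers of calls stayed within 1.5 times of those reported in all alternatives. The furthest was scaling by library totals, with 3369 genes higher in heart and 7633 in spleen. Without the replicate block there were 4945 and 5278, holding 95.1% of the calls made with it, and leaving out 1 fish gave 4645 to 5061 and 4947 to 5309. No called gene was called in the opposite direction in any of the 19 alternatives. The tissue-by-treatment term called 0 genes in all 13 alternatives, also without the block. The 4 named genes stayed past the threshold in all 19 alternatives, with adjusted p of at most 0.00229, at fitted log2 changes of 13.87 to 17.22 for ENSNFUG00015019632, 13.54 to 16.44 for ENSNFUG00015017695, -15.04 to -12.33 for ENSNFUG00015017592 and -12.29 to -10.68 for ENSNFUG00015003055. They were chosen for the largest changes in these same libraries, so passing again is no separate support.

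With library totals the median log2 fold change was 2.99 for muscle-enriched, -2.51 for kidney-enriched, -0.28 for even and -0.55 for low genes. With a 5-fold limit it was 2.08 for muscle-enriched, -0.91 for liver-enriched, 0.63 for muscle and kidney and 1.62 for liver and muscle genes. Without the filter, and with all 42 libraries, both chosen after seeing the data, it was 2.39 and 2.33 for muscle-enriched, -1.47 and -1.45 for kidney-enriched and -2.44 and -2.46 for liver and kidney genes, and 2.01 for muscle and kidney genes with all 42. Leaving out 1 fish gave the low group -0.376 to -0.082. The share in the top genes passed with 50 genes (5.94 points). Without alendronate fish 1 and 3, heart minus spleen was -216 genes to 50% of counts and -583 genes at 1 CPM, both at an adjusted p of 0.0625. Leaving out 1 fish gave -249 to -179 and -705 to -598. In the exact permutation test the adjusted p of both was 0.0313 without alendronate fish 1 and 0.0625 without any other fish. With 7 or 6 pairs a single measure at the smallest exact p cannot pass after adjustment over 4. The lost calls thus rest in part on the number of pairs, while both differences kept their sign in each of these settings.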

Other observations

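Abundant heart genes left unequal traces in the spleens. For 13 genes at 1000 CPM or more in every heart and a spleen median under a thousandth of the heart median, the median level in spleen was 2.57 CPM in placebo fish 3 and 0.191 to 0.445 CPM in the other 7 fish. The spleen of placebo fish 3 was the highest for 10 of the 13 genes. Its levels were 0.0493% of those in the heart of the same fish, against 0.00457% to 0.0177% in the other 7. These 13 genes were chosen after their values were seen, and the cause was not tested.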
